A study of Mus musculus with 9 samples.

Results

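The neurotrophins and their receptors were examined through 6 genes of the 56289 in the deposited gene table. The 6 genes were Ngfr, Ntrk2, Ntrk3 and Sort1, which encode receptors, and Bdnf and Ntf3, which encode ligands. They were taken by symbol, and they had been picked with their values in these libraries already known. Their levels and differences are therefore given here as a description and without p-values. Members called in the fit of all genes are counted below beside the share over all genes. Those counts are no test of the 6 genes. Neurotrophins are secreted growth factors best known for keeping neurons alive, and each is made as a larger precursor. The mature forms act through the Trk receptor tyrosine kinases, which include the products of Ntrk2 and Ntrk3, whereas all of them also bind p75NTR, the Ngfr product, a member of the TNF receptor superfamily. The precursors bind p75NTR together with sortilin, the Sort1 product, and p75NTR is a long-used surface marker of neural crest and Schwann cells.

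RNA was sequenced from cultures labelled RAW264.7, a mouse macrophage-like line, strain BALB/c, in 3 groups of 3 libraries. The Con cultures received neither agent. The TNF-α cultures received recombinant human TNF-α at 20 ng/ml, and the TNF-α+WBT cultures received the same TNF-α with WBT (Wang Bi tablet, a Chinese patent medicine) at 1.0 µg/ml. Exposure lasted 24 h, and the sample labels write the drug as WBP. There was no group with WBT alone. All cultures were labelled as the same line. The study describes the libraries of a group as biological replicates, and the labels do not say whether they came from separate cultures. The p-values below measure the spread between these libraries.

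The levels are in FPKM (fragment numbers divided by transcript length and by the size of the library). This unit corrects for transcript length, so levels can be compared between genes. The files hold no counts. From the steps between low FPKM values, the libraries were estimated to hold 16843841 to 26054359 fragments, with a median of 20220260. Fragment numbers below rest on this estimate and cover counting error only.

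The labelled cell type was not matched by its defining markers. Of 17 macrophage markers, 1 (Cd14) was above 1 FPKM in all 9 libraries. Another 7 were listed at 0 in all 9, namely Ptprc, Spi1, Adgre1, Itgam, Tyrobp, Cybb and Ctss. By contrast, 10 of 14 Schwann cell and neural crest markers were above 1 FPKM in all 9 libraries. Among them were Sox10 at 77.04 to 103.1 FPKM and Foxd3 at 76.93 to 97.48 FPKM. Of 14 fibroblast markers 11 were above 1 FPKM throughout, and of 12 neuron markers 4 were. The myelin gene Mbp stayed below 0.5 FPKM, and the neuronal genes Rbfox3, Elavl4 and Stmn2 were listed at 0. The cultures are therefore called by their group names below, and no cell type is assigned to them.

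Ngfr was the most abundant of the 4 receptor genes in every library. The gene lies on the minus strand of chromosome 11, from 95568818 to 95587735 (GRCm38), and has 1 annotated transcript. The stretch just upstream of that transcript's start is shown because Ngfr is the gene of the set whose level moved. It spans chr11:95587736-95587948 (GRCm38.p6, minus strand, RefSeq promoter table) and is printed 5′ to 3′, ending at the base before the start, with each GC box (GGGCGG, the letters bound by Sp1-type factors) in capitals.

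Ngfr upstream: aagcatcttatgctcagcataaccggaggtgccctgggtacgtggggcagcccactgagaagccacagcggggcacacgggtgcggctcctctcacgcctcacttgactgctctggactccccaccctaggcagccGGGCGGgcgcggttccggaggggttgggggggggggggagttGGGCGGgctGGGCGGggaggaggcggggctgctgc

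These 213 bases were 70.9% G or C, against a median of 51.6% over 32851 promoter windows of the same length. The start used for Ngfr is that of GENCODE, 37 bases upstream of its RefSeq start. Every window, that of Ngfr included, begins 250 bases before its RefSeq start, so the others end short of their start. They held 3 GC boxes on either strand, all on the sense strand, and none overlapped another. At least 1 GC box was found in 27.4% of the windows, and 3 or more in 5.47%. The AP-1 letters TGANTCA had 0 matches on either strand (5.92% of windows held them), and the NF-κB consensus had 0 matches (6.09% of windows). These are matches of letters in 1 window and say nothing of which factors were bound.

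Ngfr was high without treatment and lower in both groups that received TNF-α. The 3 Con libraries had 169.4, 164.9 and 173.7 FPKM. The TNF-α libraries had 97.63, 96.72 and 96.68 FPKM, and the TNF-α+WBT libraries had 106.8, 107.1 and 109.8 FPKM. All TNF-α libraries lay below all Con libraries, and the TNF-α+WBT libraries lay between the other 2 groups without touching either. The means were 169.3 ± 4.41 FPKM (SD, n = 3) in Con, 97.01 ± 0.537 in TNF-α and 107.9 ± 1.64 in TNF-α+WBT. The TNF-α mean was thus 57.3% of the Con mean, and the TNF-α+WBT mean was 63.7% of it.

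These values rested on an estimated 6291 to 15205 fragments per library, and by its mean Ngfr lay above 98.4% of the genes tested. On the log2(FPKM + 0.1) scale, the difference between TNF-α and Con was -0.80 (SE 0.03). The difference between TNF-α+WBT and TNF-α was 0.15 (SE 0.03), and that between TNF-α+WBT and Con was -0.65 (SE 0.03). The comparisons share libraries and are not independent of each other. In RNA from whole cultures, fewer cells of a type and less RNA per cell cannot be told apart.

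**Figure D1:**
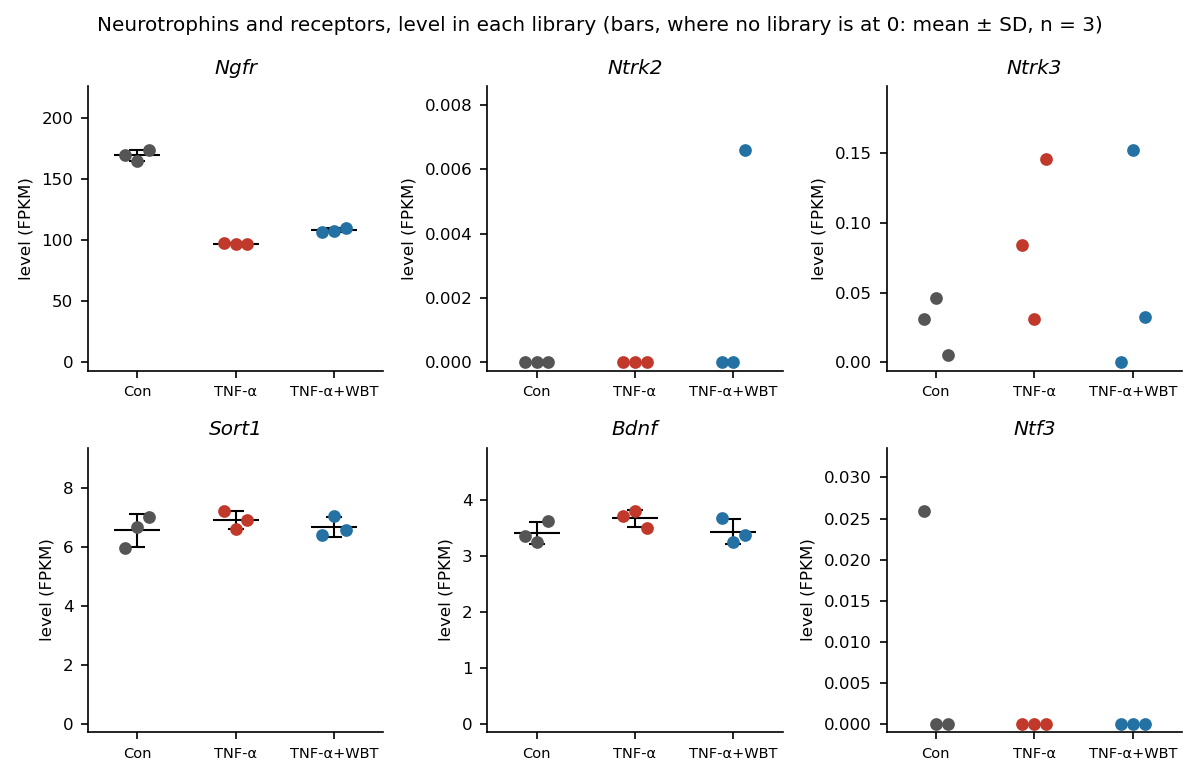
Level of each of the 6 genes in FPKM (vertical axis, linear, a separate scale for each gene) in the 3 libraries of Con, TNF-α and TNF-α+WBT, with 1 point for each library. Horizontal bars with whiskers give the mean ± SD (n = 3) for the 3 genes above 0 in every library. Ngfr sits at 164.9 to 173.7 FPKM in Con and at 96.68 to 97.63 FPKM in TNF-α, whereas the groups of Sort1 and of Bdnf overlap.

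Of the 6 genes, 4 passed the filter on low values (above 0 FPKM in at least 3 libraries): Ngfr, Ntrk3, Sort1 and Bdnf. In TNF-α against Con, Ngfr was the 1 member called at a Benjamini-Hochberg adjusted p under 0.05 in limma, in the lower direction, where 1.93% of the 25417 genes tested were called lower. It was also the 1 member whose groups did not overlap there, as for 10.2% of genes in the lower direction. No member was called in TNF-α+WBT against TNF-α (0.00393% of genes were, or 1 gene), and the groups of Ngfr did not overlap, as for 5.39% of genes in the higher direction. Ngfr was again the 1 member called in TNF-α+WBT against Con, where 1.40% of genes were called lower, and its groups did not overlap, as for 9.25% in that direction. As the genes were picked on these contrasts, the calls are no test of them, and nothing is read from these counts.

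Ntrk2 and Ntrk3 were at or near 0. Ntrk2 (chromosome 13, 58806569 to 59133970, plus strand) encodes TrkB, the receptor of mature BDNF. It was listed at 0 in 8 libraries and had 0.0066 FPKM in TNF-α+WBT library 3, about 1 fragment. A count of 0 allows up to 3 fragments in a library, so expression below that depth was not detectable.

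Ntrk3 (chromosome 7, 78175959 to 78738012, minus strand) encodes TrkC, the receptor of neurotrophin-3. Its values were 0.0309, 0.0460 and 0.0050 FPKM in Con, 0.0842, 0.0311 and 0.146 FPKM in TNF-α, and 0, 0.152 and 0.0329 FPKM in TNF-α+WBT. The groups overlapped in every comparison, and the highest value stood on about 7 fragments. The few fragments were spread by the authors' software over 6 of 20 annotated transcripts, and no transcript was above 0 in more than 5 libraries.

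Sort1, on the plus strand of chromosome 3 (108284082 to 108361511), encodes sortilin, which also carries cargo from the Golgi to endosomes. It had 5.95, 6.68 and 7.02 FPKM in Con. The TNF-α libraries had 7.20, 6.58 and 6.91 FPKM, and the TNF-α+WBT libraries 6.39, 7.05 and 6.57 FPKM. The ranges overlapped in all 3 comparisons. The differences on the log2(FPKM + 0.1) scale were 0.08 for TNF-α minus Con, -0.05 for TNF-α+WBT minus TNF-α and 0.03 for TNF-α+WBT minus Con, each with an SE of 0.08. In its transcripts, Sort1-201 held 34.3 to 70.8% of the gene's FPKM, Sort1-203 held 20.6 to 38.8% and Sort1-202, which starts furthest downstream, held 5.56 to 29.5%. The ranges of these shares overlapped between groups, and in Con alone Sort1-201 ran from 34.3 to 61.5%.

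Among the ligands, Bdnf was measured at a steady, modest level. The gene (chromosome 2, 109674700 to 109727007, plus strand) encodes brain-derived neurotrophic factor, the ligand of TrkB. It had 3.36, 3.24 and 3.62 FPKM in Con, 3.71, 3.79 and 3.50 FPKM in TNF-α, and 3.68, 3.25 and 3.37 FPKM in TNF-α+WBT. The groups overlapped in every comparison. The differences on the log2(FPKM + 0.1) scale were 0.10 for TNF-α minus Con, -0.10 for TNF-α+WBT minus TNF-α and 0.01 for TNF-α+WBT minus Con, each with an SE of 0.09. The libraries were made with a kit that does not mark strand, and an exon of Bdnf overlaps Gm45346 and an exon of Sort1 overlaps Gm12523, each on the other strand. Reads in those overlaps cannot be told apart.

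Bdnf is transcribed from several alternative first exons joined to a common coding exon, and 11 transcripts from 9 start sites are annotated. Most of its FPKM was assigned to Bdnf-205, which starts at 109693563. In Con it held 100%, 89.7% and 94.2% of the gene's FPKM. In TNF-α the shares were 84.2%, 60.6% and 80.1%, and in TNF-α+WBT they were 88.0%, 96.6% and 84.3%. The TNF-α shares lay below those of Con without overlap, although TNF-α library 2 alone was far below the others, and the TNF-α+WBT shares lay on both sides of the lowest Con value. The other 10 transcripts together had 0.0013 to 0.333 FPKM in Con, 0.586 to 1.49 FPKM in TNF-α and 0.109 to 0.531 FPKM in TNF-α+WBT. Each of these transcripts rested on at most 25.9 estimated fragments in a library. They share most of their sequence with Bdnf-205, so the split between them depends on few reads over the first exons.

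**Figure D2:**
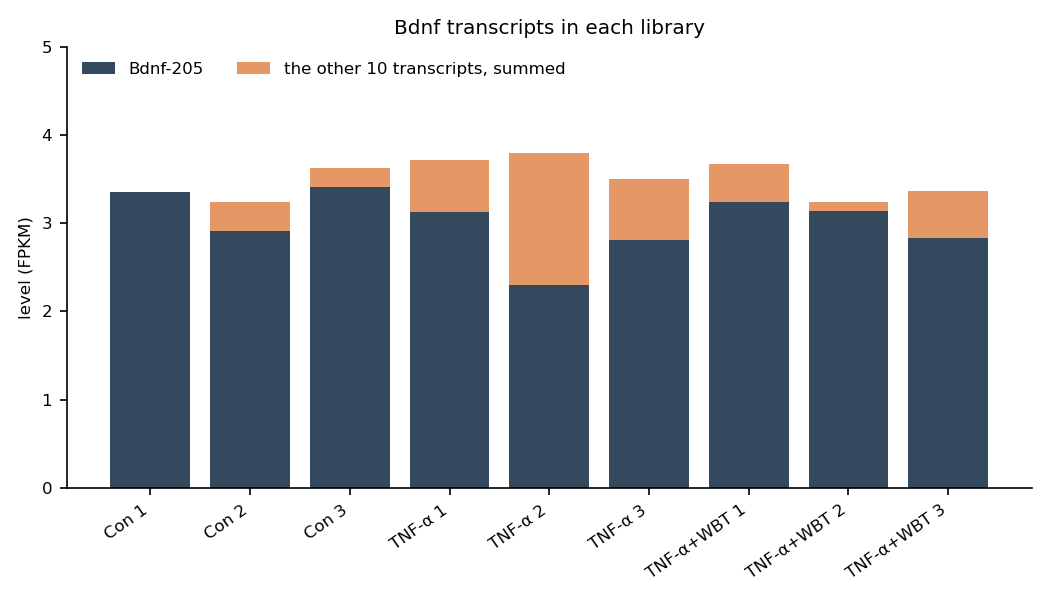
FPKM of Bdnf in each of the 9 libraries (vertical axis, linear from 0), divided into transcript Bdnf-205 (dark) and the sum of the other 10 transcripts (light). The total stays between 3.24 and 3.79 FPKM, and the light portion is largest in TNF-α library 2, at 1.49 FPKM.

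Ntf3 (chromosome 6, 126101412 to 126166910, minus strand) encodes neurotrophin-3. It was listed at 0 in 8 libraries, and at 0.0259 FPKM in Con library 1, about 1 fragment. In order of mean level over the 9 libraries, the 6 genes were Ngfr (124.7 FPKM), Sort1 (6.70), Bdnf (3.50), Ntrk3 (0.0587), Ntf3 (0.0029) and Ntrk2 (0.0007). Ngfr, Sort1 and Bdnf were separated from each other in every library. Ntf3 and Ntrk2, the lowest pair, were each at 0 in all libraries but 1 and did not differ beyond their spread.

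To place these genes in their pathway, 88 further genes were followed, of which 80 passed the filter. These too were chosen with earlier results of these data known, so their counts are a description and not evidence about the pathway. In TNF-α against Con, 17 of 80 were called by limma (adjusted p under 0.05), 9 higher and 8 lower, or 21.2%, where 4.86% of all genes tested were called (2.94% higher). The median difference of the 80 was 0.04 on the log2(FPKM + 0.1) scale, against 0.00 for all genes. The study's thresholds (unadjusted p under 0.05 and a fold over 2) were also applied, here to the limma p and the log2(FPKM + 0.1) difference. By them 6 of 80 passed, where 2.42% of all genes did. The study's own workflow was not rerun, and it reported other numbers of genes passing. In TNF-α+WBT against TNF-α, 0 of 80 were called by limma, and 7 had an unadjusted p under 0.05 (6.31% of all genes did). By the study's thresholds, applied in the same way, 0 passed (1.12% of all genes did). With TNF-α+WBT against Con, 13 of 80 were called, 8 higher and 5 lower, where 3.71% of all genes were called (2.31% higher).

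Ntf5, which encodes neurotrophin-4, the other ligand of TrkB, was low, at 0.110 to 0.545 FPKM over the 9 libraries and at most 22.7 estimated fragments. Its difference in TNF-α against Con was 0.56 (SE 0.37, limma adjusted p = 0.548) with overlapping groups. In TNF-α+WBT against TNF-α it was -0.68 (SE 0.37, limma adjusted p = 0.824), and there the groups did not overlap.

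Of 10 other receptors and co-receptors, 8 were tested. In TNF-α against Con 3 were called, 1 higher and 2 lower, where 4.86% of all genes tested were called. Sorcs1, a sortilin-related receptor, rose from 0.241 to 0.495 FPKM in Con to 1.39 to 2.05 FPKM in TNF-α, a log2 difference of 1.93 (SE 0.27, limma adjusted p = 0.00419). Sorcs2, a sortilin-related receptor that also partners p75NTR, had 11.15, 12.08 and 10.95 FPKM in Con and 9.41, 9.37 and 9.07 FPKM in TNF-α, and fell by 0.29 on the log2 scale (SE 0.06, limma adjusted p = 0.0218). That call was lost without any 1 of Con libraries 1 and 2 and TNF-α libraries 1, 2 and 3 (adjusted p up to 0.0856). Lingo1 encodes a co-receptor of p75NTR for myelin inhibitors. It fell from 0.629 to 0.640 FPKM to 0.117 to 0.289 FPKM, by 1.20 on the log2 scale (SE 0.28, limma adjusted p = 0.0462). Its call did not hold when any 1 of the 9 libraries was left out (adjusted p 0.0607 to 0.131). With a pseudocount of 1 FPKM the difference was 0.94 for Sorcs1 and -0.41 for Lingo1, both still called. Counting every alternative setting, the fits without 1 library included, the call of Lingo1 was lost in 13 of 18. That of Sorcs2 was lost in 7 of 19.

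The remaining tested receptors of that list did not pass. Sorl1, a further sortilin relative, had 6.63 to 7.88 FPKM over the 9 libraries. Nradd, a p75NTR homologue that lacks the ligand-binding part, had 23.7 to 32.0 FPKM and was the most abundant of the list. Rtn4r, the Nogo receptor, had 1.45 to 2.18 FPKM in Con and 2.24 to 3.29 FPKM in TNF-α, without overlap (difference 0.61, SE 0.20, limma adjusted p = 0.153). Tnfrsf19, a TNF receptor family member that can stand in for p75NTR in the Nogo receptor complex, had 0.345 to 1.03 FPKM. Slitrk5, a TrkB co-receptor, had 0.344 to 0.816 FPKM. Sorcs3 was listed at 0 in all 9 libraries.

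**Figure D3:**
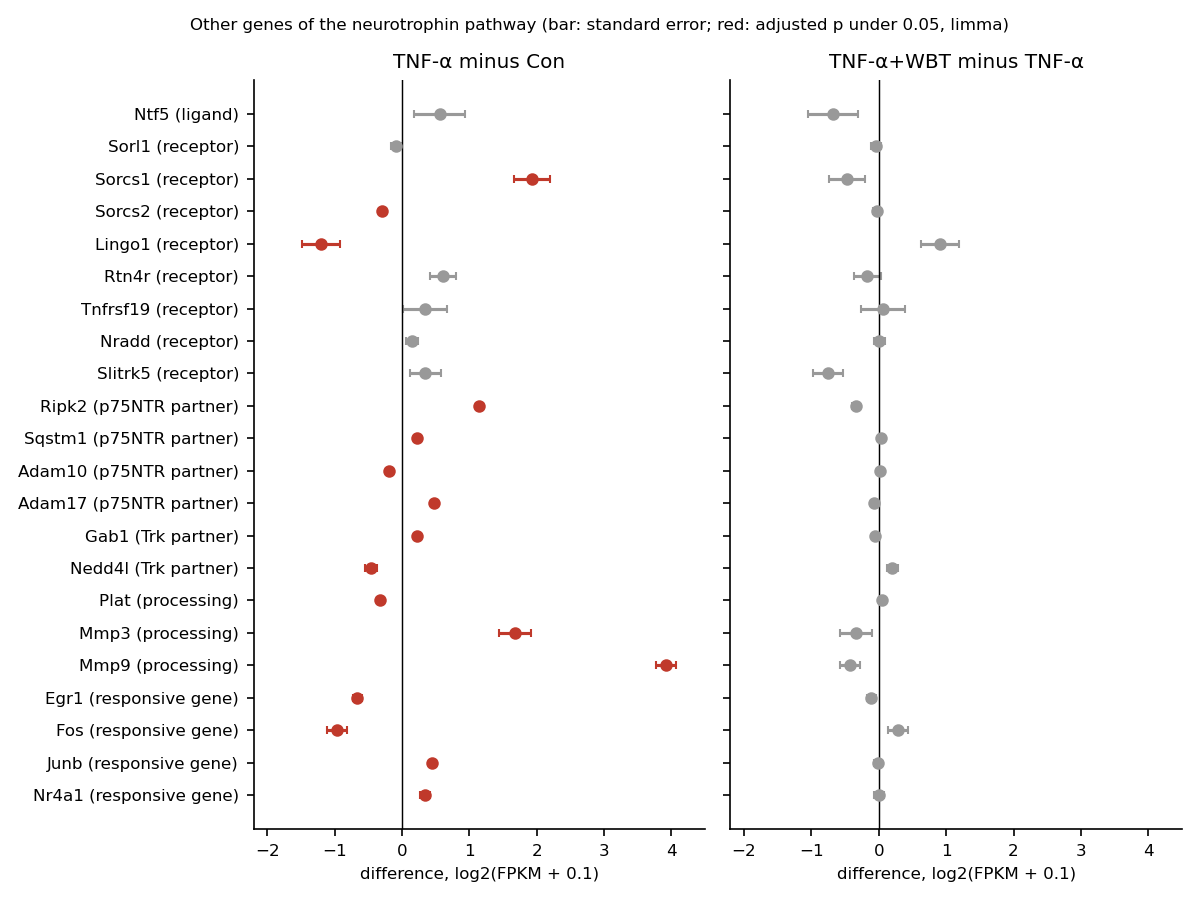
Differences on the log2(FPKM + 0.1) scale (horizontal axis) for Ntf5, the tested further receptors and the other pathway genes named here that were called in TNF-α against Con. The left panel gives TNF-α minus Con and the right panel TNF-α+WBT minus TNF-α, bars are standard errors, and red marks a limma adjusted p under 0.05. In the left panel Mmp9 stands highest at 3.92 and Lingo1 lowest at -1.20, and in the right panel no gene is called.

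Among the adaptors, effectors and cleavage enzymes of p75NTR, 18 of 19 genes were tested. In TNF-α against Con 4 were called, 3 higher and 1 lower (4.86% of all genes tested were called). All 18 were above 1 FPKM in all 9 libraries. Ripk2, a kinase that binds the p75NTR death domain and is also a relay of innate immune signalling, rose from 6.30 to 6.53 FPKM to 13.9 to 14.8 FPKM (log2 difference 1.15, SE 0.05, limma adjusted p = 7.13e-06). In TNF-α+WBT it had 10.9, 11.9 and 11.1 FPKM. Those libraries lay below all TNF-α libraries and above all Con libraries, and their difference from TNF-α was -0.34 (SE 0.05, unadjusted p = 0.000158, limma adjusted p = 0.193). Adam17, a sheddase that cuts the p75NTR ectodomain as well as membrane-bound TNF, rose from 15.4 to 15.7 FPKM to 20.8 to 22.5 FPKM (log2 difference 0.47, SE 0.04, limma adjusted p = 0.000464). Sqstm1, which encodes the scaffold p62, rose by a log2 difference of 0.23 (SE 0.03, limma adjusted p = 0.00398), a call that was lost without the intensity trend (adjusted p = 0.085). The fourth called gene, the sheddase Adam10, fell by 0.19 on the log2 scale (SE 0.04, limma adjusted p = 0.0404) and was picked for mention after its values were seen.

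Of the Trk adaptors and signalling partners, 18 of 19 were tested. In TNF-α against Con 2 were called, where 4.86% of all genes tested were. Gab1, a docking protein downstream of Trk and other tyrosine kinases, rose from 27.5 to 29.9 FPKM to 32.8 to 34.7 FPKM (log2 difference 0.23, SE 0.04, limma adjusted p = 0.0156). Without Con library 1 or TNF-α library 1 or 3 its call was lost (adjusted p 0.0502 to 0.0607). Counting every alternative setting, the call of Gab1 was lost in 6 of 19. Nedd4l, a ubiquitin ligase, fell from 20.1 to 23.8 FPKM to 14.3 to 17.2 FPKM (by 0.46 on the log2 scale, SE 0.08, limma adjusted p = 0.0148). That call was lost without TNF-α library 1 (adjusted p = 0.0565) or 2 (adjusted p = 0.0538), and in 3 of 19 alternative settings when all are counted.

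Genes for the processing of proneurotrophins included the largest difference of the pathway. Of 17 genes, 13 were tested and 3 were called in TNF-α against Con, where 4.86% of all genes tested were. Mmp9, a secreted protease known to cleave proneurotrophins outside the cell, had 0.149, 0.167 and 0.231 FPKM in Con, 3.95, 4.22 and 4.25 FPKM in TNF-α, and 2.89, 3.29 and 2.98 FPKM in TNF-α+WBT. The 3 groups did not overlap. Its log2 difference was 3.92 (SE 0.15, limma adjusted p = 2.58e-06) for TNF-α minus Con and -0.43 (SE 0.15, unadjusted p = 0.0207, limma adjusted p = 0.707) for TNF-α+WBT minus TNF-α. Mmp3, a protease with the same property, rose from at most 0.0426 FPKM to 0.316 to 0.329 FPKM (log2 difference 1.68, SE 0.24, limma adjusted p = 0.00452) on at most 13.3 estimated fragments. The size of both differences depended on the pseudocount: with 1 FPKM and with 0.01 FPKM in place of 0.1, Mmp9 gave 2.12 and 4.46 and Mmp3 gave 0.36 and 3.01, with both genes still called. Plat, the tissue plasminogen activator that starts plasmin cleavage of proBDNF, fell from 66.7 to 68.4 FPKM to 51.7 to 55.4 FPKM (by 0.33 on the log2 scale, SE 0.04, limma adjusted p = 0.00228).

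The sorting machinery and cargo of sortilin showed no call. All 9 genes of that list were tested and were above 1 FPKM in every library. By limma 0 of 9 were called in TNF-α against Con, which is near the share over all genes tested (4.86%). An unadjusted limma p under 0.05 was found there for 4 of the 9, and for 4088 of the 25417 genes tested. In TNF-α+WBT against TNF-α, 0 of 9 were called (0.00393% of all genes were), with 0 at an unadjusted p under 0.05 (6.31% of all genes).

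Of 12 genes known to respond to neurotrophins, 4 were called in TNF-α against Con, 2 in each direction (4.86% of all genes tested). The immediate early gene Egr1 had 7.24, 7.25 and 7.76 FPKM in Con and 4.59, 4.86 and 4.52 FPKM in TNF-α, and fell by 0.66 on the log2 scale (SE 0.06, limma adjusted p = 0.000602). Fos, which encodes an AP-1 subunit, fell from 8.35 to 10.2 FPKM to 4.34 to 5.31 FPKM (by 0.96 on the log2 scale, SE 0.15, limma adjusted p = 0.00638). Junb, which encodes another AP-1 subunit, rose from 65.9 to 71.1 FPKM to 92.1 to 96.3 FPKM (log2 difference 0.45, SE 0.05, limma adjusted p = 0.00176). The fourth gene, the nuclear receptor Nr4a1, rose by a log2 difference of 0.34 (SE 0.07, limma adjusted p = 0.0365) and was picked for mention after its values were seen. These genes answer many stimuli besides neurotrophins. Exons of Sorcs1, Adam17, Sqstm1, Gab1, Nedd4l and Junb overlap a gene on the other strand, so part of their reads cannot be told apart from that gene's.

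Genes whose level ran most like that of Ngfr were sought among 12685 others with a mean of at least 1 FPKM, by Pearson correlation of log2(FPKM + 0.1) over the 9 libraries. The 9 libraries fall into 3 treatment groups, so a high value mostly reflects a like order of the group means, and it is given as a description. The closest were Cyp2j9 (0.998), Gm45869 (0.998), Tubb3 (0.997), Lbh (0.997) and Sema4f (0.996). In TNF-α, Cyp2j9 stood at 54.6% of its Con mean, Lbh at 76.4%, Tubb3 at 29.1%, Sema4f at 29.0% and Gm45869 at 19.1%. In TNF-α+WBT each was a little higher, at 61.6%, 81.1%, 37.6%, 35.5% and 25.6% in the same order. The most opposite were Col6a1 (-0.998), a collagen chain, at 155% of its Con mean in TNF-α and 144% in TNF-α+WBT, and Nfkbia (-0.997), which encodes the NF-κB inhibitor IκBα, at 325% and 284%.

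**Figure D4:**
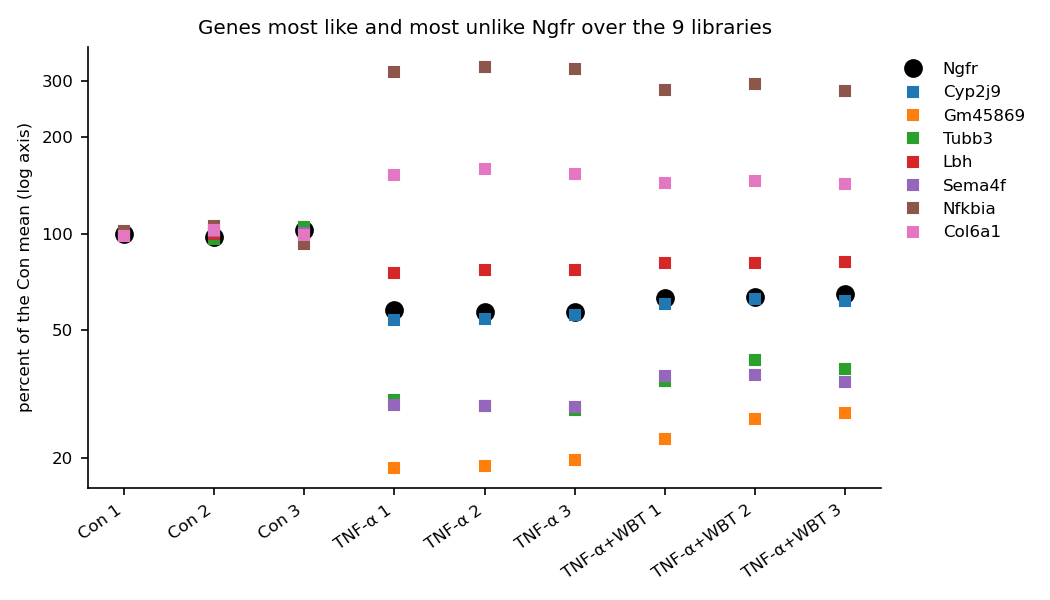
Level of Ngfr (black), of the 5 genes most like it and of the 2 most unlike it in each library, as percent of the gene's own Con mean (vertical axis, log scale). In the TNF-α+WBT libraries the points of Ngfr and of the 5 genes like it lie above those of TNF-α, and those of Nfkbia and Col6a1 lie below, while all stay on the same side of 100 as in TNF-α.

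Some markers of other cell types were lower in TNF-α than in Con, as Ngfr was, and most markers did not pass the test. Over all genes tested, 1.93% were called lower and 2.94% higher in this comparison. The marker lists were chosen with earlier results of these data known, so their counts are a description. Of the 14 Schwann cell and neural crest markers, 4 were called lower and 0 higher in TNF-α against Con, with a summed level of 801.8 to 858.4 FPKM in Con, 697.2 to 760.4 in TNF-α and 753.4 to 780.3 in TNF-α+WBT. The 4 were S100b (-1.28 on the log2 scale, limma adjusted p = 6.91e-05), Cdh19 (-0.71, adjusted p = 7.56e-05), Erbb3 (-0.28, adjusted p = 0.00908) and Foxd3 (-0.26, adjusted p = 0.00352). Sox10 did not pass, at -0.17 (limma adjusted p = 0.538). Of the 12 neuron markers 6 were tested and 3 were called lower, with a summed level of 74.3 to 75.8 FPKM in Con, 31.7 to 35.9 in TNF-α and 38.1 to 40.5 in TNF-α+WBT. These 3 were Tubb3 (-1.77, limma adjusted p = 1.26e-06), Nefm (-1.47, adjusted p = 8.4e-05) and Nefl (-1.17, adjusted p = 0.000521). Tubb3 made up most of the sum, with a mean of 55.3 FPKM in Con. Map2, the next most abundant, went the other way without passing, with means of 8.67 FPKM in Con and 12.4 FPKM in TNF-α and groups that did not overlap (0.52, limma adjusted p = 0.186). Fibroblast markers were called in both directions, 2 higher (Col1a1 and Col1a2) and 2 lower (Pdgfrb and Postn), and the macrophage list summed to 6.30 to 8.90 FPKM over the 9 libraries with no call among 8 tested. Whether a change in the cells present had a part in the values of Ngfr was not tested.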

How the data were processed

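Poly(A) RNA of 9 libraries was sequenced as paired ends on an Illumina NovaSeq instrument after a TruSeq preparation. The authors deposited FPKM per gene and FPKM per transcript, for which their workflow names HISAT2, StringTie and Ballgown. Versions, genome build and annotation are not given in the sources used here. Gene identifiers were matched to GENCODE M21 (GRCm38), which gave a symbol to 98.0% of 56289, and all columns were mapped to a library. No pair of libraries held identical values.

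Testing used limma 3.58.1 (R 4.3.3; lmFit, eBayes with trend, 1 mean per group over all 9 libraries) with log2(FPKM + 0.1) as the response and was limited to genes with a value over 0 in 3 or more libraries. Adjusted p-values are by the Benjamini-Hochberg method over all 25417 genes, two-sided, called under 0.05. With 3 libraries against 3, an exact permutation test of a single gene cannot go below 0.1, so none was used. A fold on this scale understates the change of low genes. The model was tested on simulated data. Depth was estimated from 10678 single-transcript genes, in which 54.8 to 58.9% of low values lay within 0.1 of a whole fragment, against 20.0% by chance. Tables and figures were made with Python 3.11.15, pandas 2.3.3 and matplotlib 3.10.9.

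The 6 genes and all gene lists were chosen with earlier results of these data known. Named were the 6 genes, all further ligands and receptors, from each other pathway list the 3 called genes of smallest p whose groups did not overlap (in TNF-α against Con, and likewise in TNF-α+WBT against TNF-α), the 5 genes most and 2 least like Ngfr, and markers. Alternatives changed the pseudocount, filter, trend, scaling, samples, replicate block and gene table. A few genes of these lists are not reported here by name, but the counts include them. No protein sequence was analysed here.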

Additional observations from a re-analysis of the deposited data

How the results depend on the processing

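The log2 difference of Ngfr ranged from -0.85 to -0.78 in TNF-α against Con and from 0.14 to 0.17 in TNF-α+WBT against TNF-α over 19 alternatives. Its largest shift came with quantile normalization, which gave -0.85, and -0.70 in TNF-α+WBT against Con. For Ntrk3, in TNF-α against Con, the difference was 0.08 with a pseudocount of 1 and 1.38 with 0.01, and in TNF-α+WBT against TNF-α it was -1.04 with 0.01. Differences of Sort1 and Bdnf in TNF-α against Con stayed between 0.01 and 0.15. The number of pathway genes called in TNF-α against Con was 12 to 18 under the alternatives that kept all libraries, and 11 to 16 when 1 library was left out, with the lowest number without TNF-α library 1. In TNF-α+WBT against Con the 13 calls became 8 without the intensity trend and 8 in a fit of only the 2 groups, and 8 to 12 when 1 library was left out, with the lowest without TNF-α+WBT library 1. The cause of these shifts was not tested. In TNF-α+WBT against TNF-α no pathway gene was called under any of the 19 alternatives.

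Same-numbered libraries did not deviate together (r from -0.0300 to 0.0315 over 9 pairs), so the numbers were not taken to pair them. With the replicate block, 13 pathway genes were called in TNF-α against Con and 10 in TNF-α+WBT against Con, and Lingo1, Gab1, Sorcs1 (in TNF-α+WBT against Con) and Fos (in TNF-α+WBT against Con) lost their calls. The differences of the called pathway genes named by the rule kept their direction under the alternatives run. Values of Adam10, Nr4a1 and the markers under the alternatives were not tabulated. The depth limits Ntrk2, Ntrk3, Ntf3 and the minor Bdnf transcripts, which rest on a few fragments.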
